A study of Oryctolagus cuniculus with 9 samples.

Results

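Transcripts of 10 secreted growth factors that act on blood vessels and connective tissue were followed in primary rabbit parathyroid cells. They were chosen by gene symbol and comprise the vascular endothelial growth factor (VEGF) family members VEGFA, VEGFB, VEGFC and PGF, the angiopoietin ANGPT1 and its relative ANGPTL2, the fibroblast growth factors FGF2 and FGF7, hepatocyte growth factor (HGF) and the platelet-derived growth factor chain PDGFA. Of the 10 symbols, 9 named a row of the expression table, which holds 19511 loci, and each of these named 1 row. VEGFB named 0 rows and was not analysed here. The table gives FPKM, a fragment count scaled by transcript length and library depth.

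The 9 RNA libraries fall into 3 groups of 3, all labelled primary parathyroid cells. Control cells (WT) were untreated and are labelled day 0. H/R cells (labelled IRI, ischaemia-reperfusion injury) passed through hypoxia and reoxygenation, marked 6H-6H and read here as 6 h of each. GA+H/R cells (IRI with GA) received 1200 µM GA, gallic acid, a plant phenolic acid, for 24 h and then went through the same injury. The labels name no animals, ages, pools or separate cultures, so p-values measure the spread between libraries, which may be technical. They do not say whether the other groups spent a matching time in culture.

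VEGF family proteins bind receptor tyrosine kinases of endothelial cells (FLT1, KDR and FLT4) with the neuropilins as co-receptors, and drive the growth and leakiness of vessels. ANGPT1 activates the endothelial receptor TEK (TIE2) and steadies vessels, and ANGPT2 is its context-dependent antagonist. FGF2 and FGF7 act through the FGF receptors, HGF through MET and PDGFA through the PDGF receptors. In the parathyroid gland VEGF ligands are known for their part in the regrowth of vessels after autotransplantation, and VEGFA is a classical target of the hypoxia-inducible factor HIF1A.

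The libraries differed in scale and in markers. The sum of FPKM was 1648012 to 1696488 in control, 730117 to 752065 in H/R, with GA+H/R at 467499 to 516231, and the log2 change of the median locus tested was -1.25 from control to H/R, -0.50 from there to GA+H/R, and -1.77 over both steps. Log2 changes below are therefore relative to the median locus, with every library divided by its own factor, unless they are said to be on the deposited scale. The growth factors are given on both scales. A locus is called where limma's adjusted p over all loci tested is under 0.05. Of the defining markers of the labelled cell type, PTH was at most 0.142 FPKM, CHGA at most 0.379, and 0 rows carried the names CASR or GCM2, while the 8 parathyroid markers in the table, which include widely expressed genes such as VDR, summed to 48.0 to 218 FPKM. PTH1R alone held 44.1 to 205 FPKM of that sum, and VDR at most 3.12. The 8 fibroblast markers in the table summed to 115359 to 178629 FPKM in control, 19817 to 19876 in H/R, with GA+H/R at 6431 to 6596. The 8 endothelial markers summed to 2.26 to 9.48, 0.849 to 3.81 and 2.06 to 2.29 FPKM, with VWF at 0 in 8 of 9 libraries and under 0.02 in the other. Of the 2 tested, PECAM1 was called higher in each comparison (0.56, 1.14 and 1.71). It passed the filter through GA+H/R alone, and on the deposited scale was at 0.14 (not called), 0.56 and 0.70. EMCN was not called relative to the median locus, and as deposited was lower than control in H/R and GA+H/R (-1.87 and -2.03). In these bulk libraries, fewer cells of a type and less RNA per cell cannot be told apart.

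From control to H/R, 5 of the 8 growth factors that could be tested were called. ANGPT1, FGF7, FGF2 and VEGFA fell relative to the median locus, by 2.14, 0.84, 0.60 and 0.59 on the log2 scale, and all 4 also fell on the deposited scale. PDGFA rose by 1.06 relative to the median locus, a direction that turned on the deposited scale (-0.33). VEGFC, PGF and ANGPTL2 were at -0.12, -0.44 and -0.24 and were not called. The comparison sets injured cells against untreated cells labelled day 0, and any difference in time in culture cannot be told apart from the injury. Over all 10996 loci tested, 56.5% were called, 27.6% higher and 28.9% lower, so that 5 called of 8 is near the share of all loci. The median of the 8 was -0.52, beside -0.03 over all loci. On the deposited scale all 8 were called lower, where 90.2% of all loci were called, 4.18% higher and 86.0% lower. ANGPTL2 is among these 8 and passed the filter through the controls alone, so its place in this count supports nothing.

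With gallic acid pretreatment under hypoxia and reoxygenation, 4 of the 8 were called. VEGFA fell further, by 0.96, and ANGPTL2 fell by 0.57. ANGPT1 rose by 0.55 and PDGFA by 0.47 relative to the median locus, but both lay slightly under 0 on the deposited scale (-0.06 and -0.17, neither called). FGF7, FGF2, VEGFC and PGF were at 0.51, 0.10, -0.10 and -0.18 and were not called. This comparison sets pretreated injured cells against injured cells, and any difference in time in culture cannot be told apart from gallic acid. Of all loci 33.2% were called, 18.0% higher and 15.2% lower. The median of the 8 was 0.0011, against -0.01 over all loci. With FPKM as deposited 5 of the 8 were called lower and 0 higher, where 66.0% of all loci were called, 1.69% higher and 64.3% lower.

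Pretreated injured cells also differed from untreated cells in 5 of the 8. ANGPT1, VEGFA, ANGPTL2 and FGF2 were lower by 1.59, 1.55, 0.82 and 0.50 on the log2 scale, and PDGFA was higher by 1.53 relative to the median locus and lower by 0.50 on the deposited scale. ANGPTL2 could be tested only because its controls reached 1 FPKM, so its place in this count, or on the deposited scale, supports nothing. Here 68.5% of all loci were called, 31.9% higher and 36.6% lower. The median of the 8 was -0.56, against -0.09 over all loci, and on the deposited scale all 8 were called lower, where 94.2% of loci were called, 4.10% higher and 90.1% lower. The 3 comparisons share libraries with each other, so their values stand side by side and are not independent.

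**Figure D1:**
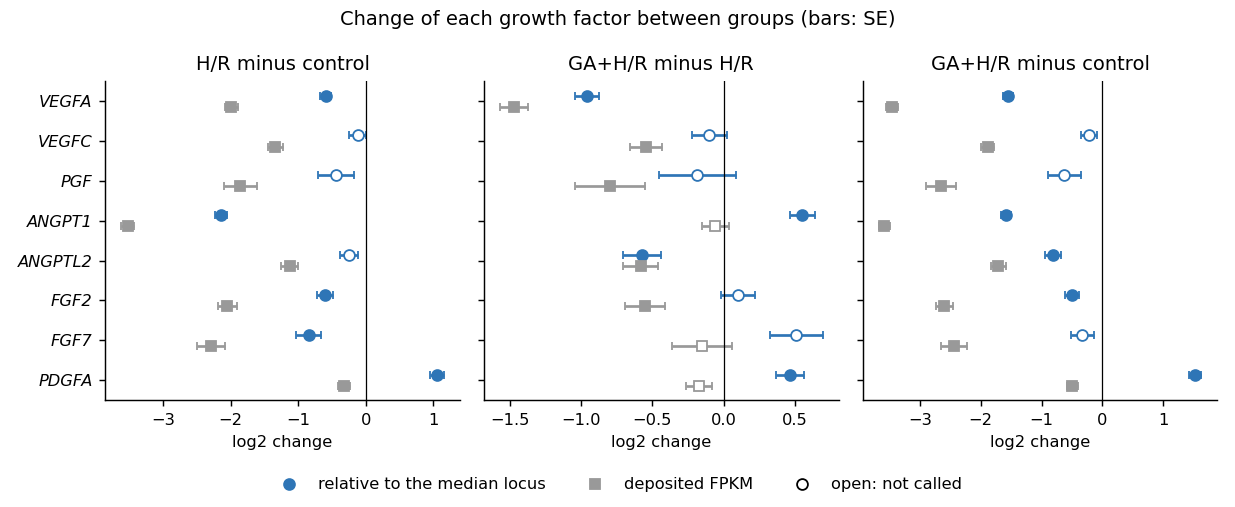
Log2 change of the 8 tested growth factors (rows) in the 3 comparisons (panels), relative to the median locus (blue circles) and on deposited FPKM (grey squares), with bars for the SE from limma and open symbols where the adjusted p was not under 0.05. PDGFA lies right of 0 relative to the median locus in all 3 panels and left of 0 on deposited FPKM, and VEGFA lies left of 0 on both scales throughout.

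VEGFA, the principal mitogen of endothelial cells in its family, formed 3 separate levels. Its FPKM was 56.9, 47.9 and 47.7 in the control libraries, 11.3, 12.7 and 12.0 in H/R, with GA+H/R at 3.52, 3.72 and 3.83. Every H/R library lay under every control, and every GA+H/R library lay under every H/R library. Means were 50.8 ± 5.22, 12.0 ± 0.678 and 3.69 ± 0.155 FPKM (SD, n = 3). The deposited level was thus 4.23-fold lower in H/R than in control and a further 3.26-fold lower in GA+H/R. Relative to the median locus these folds were 1.53 and 2.05, and the 3 levels still did not overlap. The first step was -0.59 ± 0.08 on the log2 scale (SE, limma adjusted p = 3.19e-04) and the second -0.96 ± 0.08 (adjusted p = 7.37e-05). Neither call was lost under any alternative tried.

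VEGFC, the ligand of FLT4 and a driver of lymphatic vessel growth, was not called relative to the median locus. It was at 8.87, 9.66 and 9.06 FPKM in control, at 2.65, 3.35 and 3.10 in H/R, with GA+H/R at 1.58, 1.63 and 2.07. The 3 deposited levels did not overlap, with the control mean 3.03-fold above H/R and 5.22-fold above GA+H/R. Relative to the median locus they overlapped, and the changes of -0.12 ± 0.12, -0.10 ± 0.12 and -0.22 ± 0.12 (SE, limma adjusted p = 0.442, 0.571 and 0.148 in the order of the comparisons above) were not called. Without GA+H/R library 3, the difference between GA+H/R and control was -0.32 with an adjusted p of 0.0499. Over all libraries left out in turn it ranged from -0.32 to -0.17, with limma adjusted p up to 0.323. At equal totals VEGFC was called lower in H/R (-0.36, limma adjusted p = 0.0326) and in GA+H/R against control (-0.52, adjusted p = 0.00412), the second also after quantile normalization (-0.38, adjusted p = 0.0192).

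PGF, placental growth factor, binds FLT1 and not KDR. Control library 1 stood under the other controls, at 51.3 FPKM against 89.8 and 89.3. H/R libraries were at 17.8, 21.3 and 20.4 and GA+H/R libraries at 10.5, 14.9 and 8.35 FPKM. On the deposited scale the 3 groups did not overlap. Relative to the median locus, control 1 (26.1) lay just under every H/R library (26.6, 31.7 and 30.4) while controls 2 and 3 (49.6 and 50.6) lay above all of them. PGF had the largest SE of the 8, 0.27, and was not called in any comparison relative to the median locus. Without control 1 it was called lower in H/R (-0.73, limma adjusted p = 0.0135) and in GA+H/R against control (-0.91, adjusted p = 0.00345). Without control 3 the change in H/R was -0.27 (adjusted p = 0.469). The difference of GA+H/R from control was -0.84 (adjusted p = 0.0270) without GA+H/R library 2 and -0.44 (adjusted p = 0.209) without GA+H/R library 3. Both differences from control were called at equal totals (-0.72 and -0.98, adjusted p = 0.0349 and 0.00647), and that of GA+H/R also after quantile normalization (-0.66, adjusted p = 0.0473). The 8 macrophage markers also separated control 1 from the other controls, with a summed level of 4.74 FPKM in the lowest control and 75.9 in the highest, 19.2 to 22.7 in H/R, with GA+H/R at 145.2 to 152.0. MRC1 alone held 1.55 FPKM of that in control 1, against 42.6 and 46.5 in controls 2 and 3. Of 4 of these markers tested, all 4 rose with gallic acid, where 18.0% of all loci were higher, and their part in the PGF values was not tested.

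ANGPT1, the agonist of TEK, dropped most of the 8 with hypoxia and reoxygenation on both scales. Control libraries held 98.1, 90.2 and 85.5 FPKM, H/R libraries 6.94, 7.52 and 6.56, and GA+H/R libraries 7.08, 6.21 and 6.77. The control values lay far above both other groups, which overlapped each other. The control mean was 13.0-fold the H/R mean on deposited FPKM and 4.73-fold relative to the median locus (-2.14 ± 0.09 on the log2 scale, SE, limma adjusted p = 1.22e-07). Relative to the median locus the order of the other groups was resolved: H/R libraries were at 10.4, 11.2 and 9.76 and GA+H/R libraries at 16.8, 14.6 and 16.0, a rise of 0.55 ± 0.09 (adjusted p = 0.00152). On deposited FPKM that difference was -0.06 (adjusted p = 0.596). The level in GA+H/R remained 3.12-fold under control relative to the median locus.

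ANGPTL2, a secreted relative of the angiopoietins that does not bind TEK, was a low transcript. It was at 2.25, 3.50 and 3.12 FPKM in control, at 0.773, 0.881 and 0.741 in H/R, with GA+H/R at 0.176, 0.226 and 0.197. It entered the test through the control libraries alone, which were the 3 at or above 1 FPKM, so its fall from control is in part a condition of its being tested. Deposited levels did not overlap between the groups. Relative to the median locus, H/R libraries (1.15, 1.31 and 1.10) reached into the control values (1.15, 1.93 and 1.77), and that change was not called (-0.24 ± 0.13, SE, limma adjusted p = 0.145). It was called at equal totals (-0.40, adjusted p = 0.0190) and after quantile normalization (-0.41, adjusted p = 0.0216). GA+H/R libraries (0.416, 0.532 and 0.465) lay under both, by -0.57 from H/R (adjusted p = 0.0104), or -0.25 (adjusted p = 0.155) after quantile normalization. With 1 added before the log, these values understate the change of so low a transcript.

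FGF2, basic fibroblast growth factor, stood at 287, 236 and 187 FPKM in control, 56.5, 58.9 and 51.8 in H/R, with GA+H/R at 38.8, 34.5 and 39.9. All 3 groups were apart as deposited. Relative to the median locus, controls (146, 130 and 106) lay above every treated library, and H/R (84.3, 87.8 and 77.1) and GA+H/R (91.9, 81.4 and 94.3) overlapped. The fall with hypoxia and reoxygenation was -0.60 ± 0.12 (SE, limma adjusted p = 0.00230). The difference between GA+H/R and H/R was 0.10 ± 0.12 (adjusted p = 0.541), and -0.55 on the deposited scale (adjusted p = 0.00772).

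FGF7, keratinocyte growth factor, is made by mesenchymal cells and acts on epithelium through a splice form of FGFR2. Its 3 controls were spread widely, at 712, 471 and 344 FPKM, against 106, 93.3 and 96.7 in H/R, with GA+H/R at 86.0, 92.0 and 88.4. The coefficient of variation was 36.7% in control, 6.59% in H/R, with GA+H/R at 3.42%. Every control was above every H/R library on both scales (-0.84 ± 0.18 relative to the median locus, SE, limma adjusted p = 0.00407). GA+H/R libraries, at 204, 217 and 209 relative to the median locus, were all above H/R (158, 139 and 144), a difference of 0.51 ± 0.18 that was not called (adjusted p = 0.0612). The spread shared by the fit includes the controls: with only those 2 groups fitted, the same difference was 0.46 (adjusted p = 6.47e-04), and without control 1 or control 3 it was 0.51 and 0.51 (adjusted p = 0.00420 and 0.0105). No other library left out gave a call. Over all of them the difference ranged from 0.48 to 0.57, with limma adjusted p from 0.00420 to 0.150. On deposited FPKM it was -0.15 (adjusted p = 0.548). Against control, GA+H/R was at -0.33 (adjusted p = 0.140), at -0.54 (adjusted p = 0.00529) without control 3 and at -0.0912 (adjusted p = 0.486) without control 1. At equal totals it was called lower (-0.70, adjusted p = 0.0152).

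PDGFA, a mitogen of fibroblasts that binds PDGFRA, changed least of the 8 against control in FPKM as deposited, and was the 1 growth factor above control when set against the median locus. Its FPKM was 22.4, 23.6 and 25.0 in control, 19.1, 17.8 and 19.1 in H/R, with GA+H/R at 15.4, 16.1 and 17.9. The highest GA+H/R library was just above the lowest H/R library, and all controls lay above both. The deposited mean was 1.27-fold lower in H/R than in control, while the median locus fell by 1.25 on the log2 scale. Relative to the median locus the order was the opposite, at 11.4, 13.0 and 14.1 in control, 28.6, 26.5 and 28.4 in H/R, with GA+H/R at 36.6, 37.9 and 42.3, with 0 overlap between groups. The steps were 1.06 ± 0.10 (SE, limma adjusted p = 2.54e-05) and 0.47 ± 0.10 (adjusted p = 0.00692), both higher also at equal totals and after quantile normalization. Among 13 short housekeeping transcripts, 12 rose with hypoxia and reoxygenation (median 0.97, or -0.43 as deposited) and 8 with gallic acid (median 0.44, or -0.09 as deposited), while of 13 long ones 10 and 9 fell (medians -0.44 and -0.57). Of all loci, 27.6% and 18.0% were higher and 28.9% and 15.2% lower in these steps. The part of transcript length in the changes of PDGFA or VEGFA was not tested. The authors' deposited table, which gives a single q-value per locus across the 3 groups, marks 7 of the 9 growth factors and leaves PDGFA (q = 0.115) and HGF (q = 1) unmarked. The share of all loci so marked was not taken, so the 7 of 9 cannot be set against it.

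HGF, the ligand of MET, was near the floor of the table and was the 1 growth factor with a row that was not tested. It was listed at 0.133, 0.319 and 0.0839 FPKM in control, at 0.0480, 0 and 0 in H/R, with GA+H/R at 0, 0.0871 and 0. Every control was above every H/R library, and the highest GA+H/R library was above the lowest control. With no read counts in the table, the number of fragments behind these values is unknown.

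**Figure D2:**
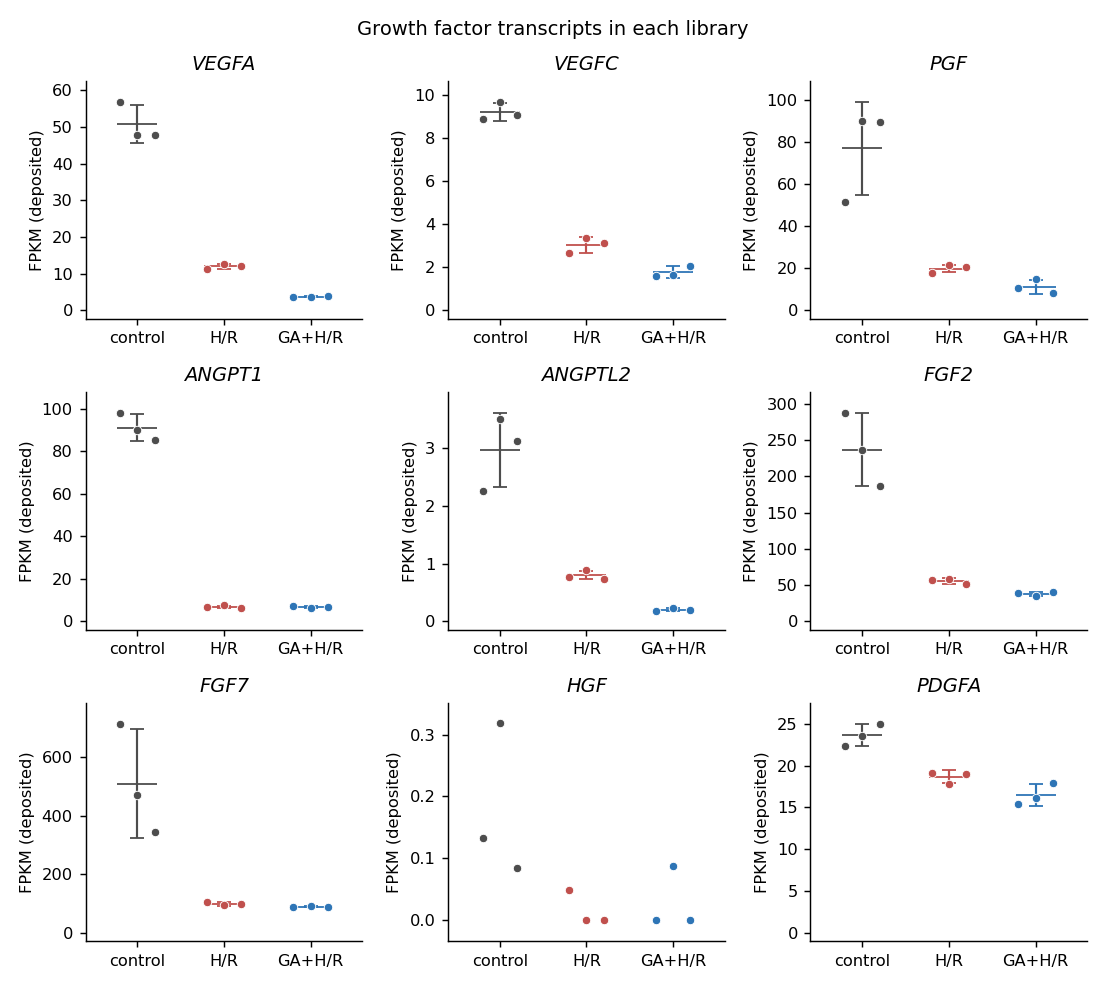
FPKM as deposited (vertical axes, a separate linear range in each panel) of the 9 growth factors in each library, grouped as control, H/R and GA+H/R. Points are libraries 1 to 3 from left to right, and the bar and whiskers are the mean and SD (points alone for HGF). VEGFA shows 3 separate levels, ANGPT1 shows a single drop from control, and PDGFA stays between 15.4 and 25.0 FPKM.

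Ratios of 2 ligands within a library need no scaling between libraries. They were chosen with the values known and are given without a test, and since FPKM of different loci may not share a common scale here, only their change between groups is described. The ratio of ANGPT1 to VEGFA was 1.73, 1.88 and 1.79 in control, 0.613, 0.593 and 0.545 in H/R, with GA+H/R at 2.01, 1.67 and 1.77. H/R libraries were all under the rest, and GA+H/R libraries lay on either side of the controls. The means were 1.80 ± 0.0778, 0.583 ± 0.0350 and 1.82 ± 0.176 (SD, n = 3). In GA+H/R both transcripts were far under control, and the ratio was close to that of control because ANGPT1 and VEGFA stood at nearly the same fraction of their control FPKM, 0.0733 and 0.0726.

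The ratio of ANGPT1 to its antagonist ANGPT2 was 3.902, 11.4 and 9.59 in control, 1.99, 1.95 and 1.71 in H/R, with GA+H/R at 3.54, 3.59 and 4.055. Control 1 again differed from the other controls, since ANGPT2 was at 25.1 FPKM there and at 7.93 and 8.92 in controls 2 and 3. H/R libraries were lower than all others. The highest GA+H/R ratio exceeded that of control 1 and stayed under controls 2 and 3.

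PDGFA climbed against VEGFA and PDGFC at each step. Its ratio to VEGFA was 0.470 ± 0.0676 in control, 1.56 ± 0.145 in H/R, with GA+H/R at 4.46 ± 0.192 (SD, n = 3). Its ratio to PDGFC, another ligand of the PDGF receptors, was 0.0360 ± 0.00697, 0.123 ± 0.00738 and 0.198 ± 0.00500. For both ratios all 3 groups were apart. By contrast the ratio of FGF2 to FGF7 was 0.482 ± 0.0719, 0.567 ± 0.0562 and 0.426 ± 0.0438, and controls overlapped both other groups. VEGFA to PGF was at 1.11 in control 1 and at 0.534 in each of controls 2 and 3, at 0.590 to 0.635 in H/R, with GA+H/R at 0.250 to 0.458.

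**Figure D3:**
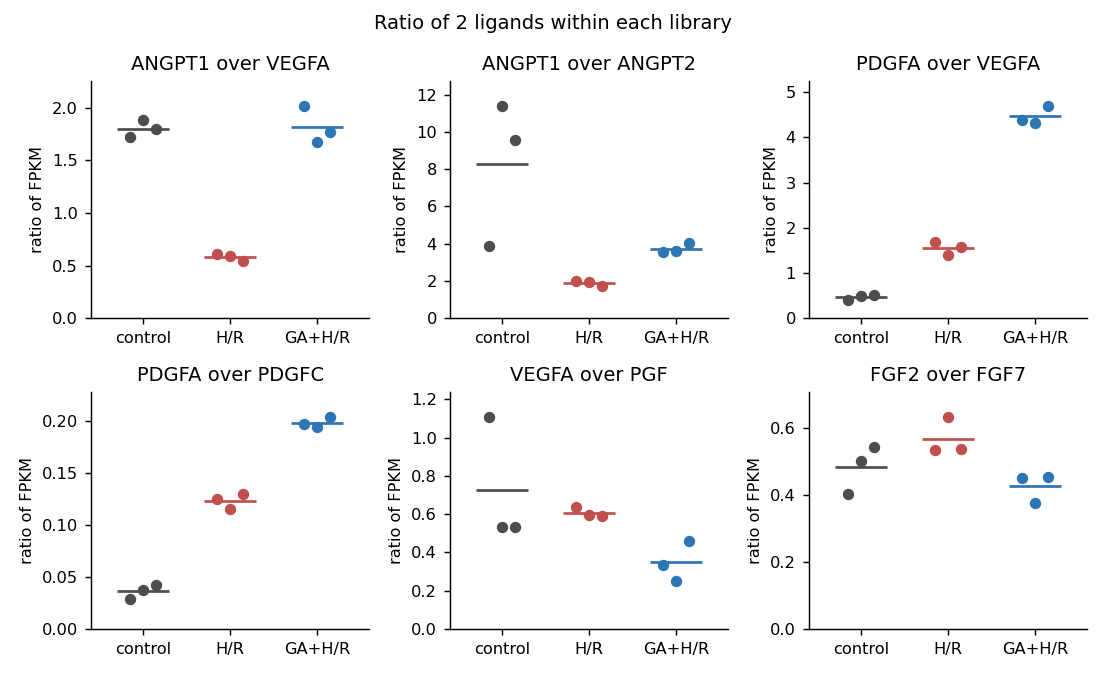
Ratio of the FPKM of 2 ligands within each library (points) with the group mean (line), for 6 pairs, vertical axes linear from 0. ANGPT1 over VEGFA is near 1.80 in control, 0.583 in H/R, with GA+H/R at 1.82, and PDGFA over VEGFA is 0.470, 1.56 and 4.46.

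The receptors of the VEGF and angiopoietin families were listed at or near 0, apart from FLT1 and the neuropilins. A listed 0 in this table does not show that a gene was silent: POLR2L, an RNA polymerase subunit that every cell uses, was at 0 in 7 of 9 libraries, and the ATP synthase subunit ATP5I was at most 0.117 FPKM. The same holds for HGF, PTH and VWF. KDR, the main signalling receptor of VEGFA, was at most 0.114 FPKM and was listed at 0 in all 6 treated libraries. TEK was at 0 in 7 of 9 libraries and at most 0.230 FPKM, and FLT4 and TIE1 were at most 0.127 and 0.103. FLT1, the receptor of VEGFA and PGF, averaged 12.1 ± 1.96 FPKM in control, 2.70 ± 0.925 in H/R, with GA+H/R at 1.58 ± 0.850 (SD, n = 3), and was not called relative to the median locus (-0.62 with limma adjusted p = 0.161 in H/R). The co-receptor NRP1 fell from 18.3 ± 1.18 to 3.21 ± 0.0689 and 1.16 ± 0.0838 FPKM, by 0.92 and then 0.63 relative to the median locus (adjusted p = 9.16e-05 and 0.00232). NRP2 fell by 1.10 and 0.79. Of the 7 receptors of these families 3 were tested, and NRP1 and NRP2 were the 2 called lower in each comparison. Of all loci 28.9% were lower in H/R against control, 15.2% with gallic acid and 36.6% in GA+H/R against control.

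Among the receptors of the FGF, HGF and PDGF families, FGFR1, MET and PDGFRB fell in both steps. FGFR1 averaged 314 ± 46.6 FPKM in control, 85.3 ± 1.77 in H/R, with GA+H/R at 37.97 ± 1.93 (SD, n = 3), with log2 changes relative to the median locus of -0.41 and -0.50 (limma adjusted p = 0.00181 and 0.00148). MET, the HGF receptor, fell by 0.51 and 0.71 and PDGFRB by 0.52 and 0.78. FGFR2 fell by 1.26 with hypoxia and reoxygenation and was at -0.32 with gallic acid (adjusted p = 0.336). PDGFRA, the receptor of PDGFA, was low, at 1.55 ± 0.168, 0.699 ± 0.0891 and 0.164 ± 0.0408 FPKM. It was at 0.15 in H/R against control (adjusted p = 0.248) and fell by 0.56 with gallic acid (adjusted p = 0.00377), where PDGFA itself rose relative to the median locus. It passed the filter through the controls alone. Of 5 receptors tested, 4 fell in each step and 0 rose, against 28.9% and 15.2% of all loci lower.

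Other ligands of the same families went down or were not called. Of 28 listed symbols 23 had a row and 11 were tested. With hypoxia and reoxygenation 5 fell and 0 rose, with a median of -0.36, where 28.9% of all loci were lower and 27.6% higher. ANGPT4, another angiopoietin, went from 579 ± 39.8 FPKM to 110 ± 4.89 and then 37.9 ± 1.52 (SD, n = 3), falling by 0.93 and 0.86 relative to the median locus (limma adjusted p = 3.07e-05 and 2.01e-04), and was the 1 other ligand called with gallic acid, where 33.2% of all loci were called. PDGFD fell by 1.06 in H/R and was at -0.16 with gallic acid (adjusted p = 0.332). FGF11, an intracellular member of the FGF family, fell by 1.07 (adjusted p = 0.0298), from controls at 57.0, 139 and 151 FPKM.

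Genes that process, hold or oppose these ligands were mostly lower, 19 of 26 tested falling and 1 rising with hypoxia and reoxygenation (median -0.62), beside 28.9% and 27.6% of all loci. With gallic acid 14 fell and 0 rose (median -0.48), beside 15.2% and 18.0%. On the deposited scale 26 and 24 of the 26 were called lower, where 86.0% and 64.3% of all loci were lower. PCSK6, one of the 26, passed the filter through the controls alone, so its fall from control there supports nothing. The antiangiogenic thrombospondins were among them: THBS1 went from 2018 ± 671 to 271 ± 1.02 and 91.4 ± 0.459 FPKM (SD, n = 3), falling by 1.37 and 0.90 relative to the median locus (limma adjusted p = 0.00141 and 0.0226), and THBS2 fell by 1.81 and 1.14. PCSK5, a proprotein convertase, fell by 1.88 in H/R. HSPG2, the heparan sulfate proteoglycan perlecan, which stores FGF2 in matrix, fell by 0.81 and then by 1.34, and SPINT1, an inhibitor of the protease that activates HGF, by 0.46 and 1.09. PCSK7, another convertase, was the 1 gene of the list that rose in H/R, by 0.43, and was at -1.01 on the deposited scale. Fibroblast markers fell too, 6 of 8 in H/R and 4 of 8 with gallic acid, with medians of -1.27 and -0.69, and their part in these lists was not tested. Of 5 smooth muscle and pericyte markers tested, 1 rose and 1 fell in H/R (median 0.30). With gallic acid 0 of these 5 rose and 3 fell (median -0.78), and their part was not tested either.

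Signal transducers divided relative to the median locus. Of 14 tested, 3 rose and 8 fell with hypoxia and reoxygenation, where 27.6% of all loci were higher and 28.9% lower. The adaptors GRB2 and SHC1 and the phosphatase PTPN11 rose by 0.85, 0.30 and 0.19, and were at -0.58, -1.16 and -1.26 on the deposited scale. SOS1, the RAS exchange factor that GRB2 binds, fell by 1.15 (limma adjusted p = 1.26e-05) and FRS2, the docking protein of FGF receptors, by 0.89 (adjusted p = 2.07e-05). SPRED1, a feedback inhibitor of RAS signalling, fell by 0.86 and rose by 0.63 with gallic acid (adjusted p = 0.0113, -0.02 on the deposited scale). PTPN11 rose by 0.23 there (-0.43 on the deposited scale), while GAB1, a docking protein of MET, fell by 0.42. In that comparison 2 of 14 rose and 1 fell, together under the 33.2% of all loci called.

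The 9 tested regulators of VEGFA transcription lay between -0.79 and 0.32 with gallic acid, where VEGFA was at -0.96. HIF1A averaged 2074 ± 343 FPKM in control, 453 ± 12.4 in H/R, with GA+H/R at 298 ± 1.61 (SD, n = 3). Relative to the median locus it fell by 0.72 in H/R (limma adjusted p = 3.82e-05) and was at 0.06 with gallic acid (adjusted p = 0.537). SP1 fell by 0.49 in H/R, SP3 fell by 0.28 and rose by 0.32 with gallic acid (-0.34 on the deposited scale), and STAT3 fell by 0.24 with gallic acid. EGLN2, an oxygen-sensing prolyl hydroxylase, and VHL, which targets HIF for degradation, rose by 0.47 and 0.23 in H/R, and were at -0.98 and -1.20 on the deposited scale. Transcript levels do not report HIF1A protein, which oxygen controls after translation. Of 9 tested, 2 rose and 4 fell in H/R, and 1 rose and 1 fell with gallic acid, near the 56.5% and 33.2% of all loci called.

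Over all 6 lists 68 genes of 100 listed symbols were tested. With hypoxia and reoxygenation 6 rose and 42 fell (median -0.50), where 27.6% of all loci were higher and 28.9% lower. With gallic acid 3 rose and 23 fell (median -0.19), where the shares of all loci were 18.0% and 15.2%. In GA+H/R against control 6 rose and 44 fell (median -0.69), beside 31.9% and 36.6%. In that comparison the largest falls were those of THBS2 (-2.94), PCSK5 (-2.29) and THBS1 (-2.27), and the largest rises those of GRB2 (0.91), EGLN2 (0.58) and PCSK7 (0.48). The 3 that rose were at -1.17, -1.52 and -1.59 on the deposited scale, where 0 of the 68 were called higher in any comparison, and 68, 56 and 68 were called lower. Of all loci, 4.18%, 1.69% and 4.10% were called higher on that scale, and 86.0%, 64.3% and 90.1% lower. PDGFRA and PCSK6, both among the 44 that fell in GA+H/R against control, and the ligand FGF23 passed the filter through the controls alone. Their place in counts of falls from control, on either scale, supports nothing.

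**Figure D4:**
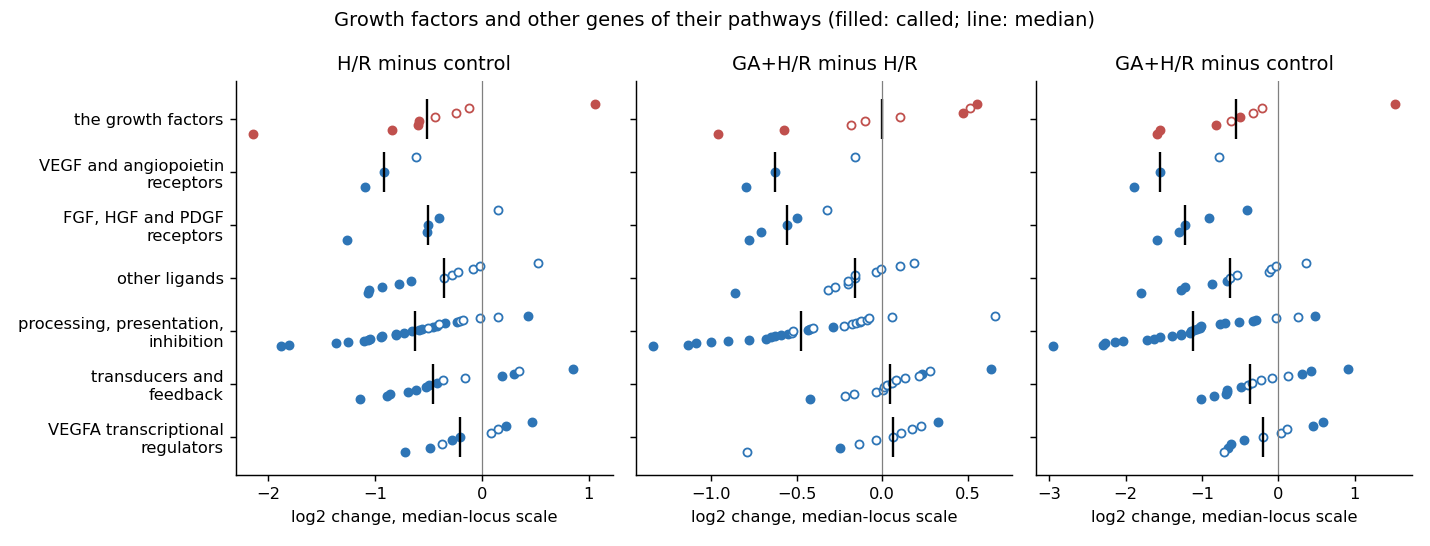
Log2 change relative to the median locus of the 8 growth factors (red) and of the tested genes of 6 lists from their pathways (blue), in the 3 comparisons, 1 point per gene, filled where called, with the list's median as a black line. PDGFA is the rightmost red point with hypoxia and reoxygenation at 1.06, and the receptor lists have medians of -0.92 and -0.51 there.

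Loci with the most similar profile over the 9 libraries were sought for each growth factor among named loci of at least 10 FPKM on average, as the root mean square difference of centred log2 values. The nearest to VEGFA were NKTR, SLC7A1 and PTX3, at 0.0856, 0.0970 and 0.0988, against a spread of VEGFA itself of 0.641. PDGFA lay nearest to PHB, TP53INP2 and HSBP1 (0.0637, 0.0712 and 0.0786, own spread 0.646). For ANGPT1 the nearest was PTGFR, a prostaglandin receptor, at 0.168, with DPY19L4 at 0.319 and the collagenase MMP13 at 0.325 (own spread 0.909). FGF7 was nearest to SPRED1 (0.0820), BROX and WASL, and FGF2 to STAG2 (0.0642), IRAK3 and YY1. ANGPTL2 was nearest to P3H1 (0.0665), SLC39A7 and MYH9, VEGFC to MIOS (0.0735), BAG2 and OGDH, and PGF to KIAA0586 (0.164), RNF144B and RBBP4.

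In the pathway annotation that the table carries, 8 of the 9 growth factors, all except ANGPTL2, share the terms MAPK, PI3K-Akt, Rap1 and Ras signalling. Of the 241 tested loci of the PI3K-Akt term, 57 were higher and 100 lower in H/R against control, with a median of -0.25, where 27.6% of all loci were higher and 28.9% lower. With gallic acid 39 were higher and 51 lower, with a median of -0.08, beside 18.0% and 15.2% of all loci. The term includes the growth factors and their receptors themselves.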

How the data were processed

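RNA of 9 libraries, 3 per group, was read from a single table of FPKM, the unit the authors deposited per the file headers, for 19511 loci. Aligner, quantifier and scaling are not given in the sources used here. As builds, the submitters' processing notes list GRCm38 and mm10, both of mouse, so no coordinates are given for these rabbit genes. Per the labels' protocols, libraries were made from total RNA. Each locus also has 1 p-value and 1 q-value from a test that the authors deposited, taken here as across the 3 groups. The table holds no counts, so depth is unknown and precision rests on the spread between libraries.

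Rows were matched by symbol. Transcripts of 6 of the 9 rows were listed under the same symbol in a RefSeq table of assembly mOryCun1.1 (VEGFA, ANGPTL2 and PDGFA were not). The filter kept 10996 loci that reached 1 FPKM in 3 or more libraries. For each library a factor was taken over the 8448 loci reaching 1 FPKM in all 9, as the median ratio to the mean of the libraries. FPKM was divided by it, 1 was added, and the log2 of the 9 libraries was modelled in limma 3.58.1 (R 4.3.3) with a mean per group and trend and robust eBayes. P-values are two-sided, with Benjamini-Hochberg adjustment over all loci tested, called under 0.05. Changes on the log2 scale of value plus 1 understate those of low genes. The code was tested on simulated data. Members, lists, scale and tests were chosen with earlier results of these data known. All growth factors were named. Of the lists, FLT1, KDR, NRP1, TEK, FGFR1, MET, PDGFRA and PDGFRB were named, and up to 3 called genes per list, comparison and direction with the largest change, non-overlapping groups and a mean of at least 1 FPKM. FLT4, TIE1, ANGPT2 and PDGFC were named after their values were seen. Alternatives changed the scaling, the added value, the filter, the libraries fitted, the eBayes settings and the replicate block.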

Additional observations from a re-analysis of the deposited data

How the results depend on the processing

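The scale between libraries mattered most. On the deposited scale, and also at equal totals, the count of growth factors called rose from 5 to 8 in H/R against control and from 5 to 8 in GA+H/R against control, and on the deposited scale the count of pathway genes called with gallic acid went from 26 to 56. On that scale the shares of all loci called rose from 56.5% to 90.2%, from 68.5% to 94.2% and from 33.2% to 66.0% in these comparisons. ANGPTL2 is among the 8 and passed the filter through the controls alone, so its place there supports nothing. The split of calls moved with it: on the deposited scale 0 growth factors and 0 pathway genes were higher, and at equal totals 1 and 7 growth factors were higher and lower in H/R against control, and 1 and 49 pathway genes. The share of all loci called at equal totals was not taken, so these counts cannot be set against it. The median change over all loci there was -0.25 in H/R against control. Of the 68 pathway genes tested, 12, 18 and 11 turned direction on the deposited scale in the 3 comparisons, of which 6, 3 and 6 had been called. Among the growth factors, the called genes named for that comparison and the receptors always named, those that turned were, for H/R against control, PDGFA (-0.33), PCSK7 (-1.01), GRB2 (-0.58), SHC1 (-1.16), PTPN11 (-1.26), EGLN2 (-0.98), VHL (-1.20) and PDGFRA (-0.59, not called relative to the median locus). With gallic acid they were ANGPT1 (-0.0589), FGF2 (-0.55), FGF7 (-0.15), PDGFA (-0.17), PTPN11 (-0.43), SPRED1 (-0.0225) and SP3 (-0.34), and for GA+H/R against control PDGFA (-0.50), PCSK7 (-1.59), GRB2 (-1.17), SHC1 (-1.81), PTPN11 (-1.69), EGLN2 (-1.52) and VHL (-1.62). At equal totals PTPN11 (-0.10) and VHL (-0.0573) turned in H/R against control and SHC1 (-0.0627) in GA+H/R against control. These turns follow from the shift of the median locus that the rescaling removes. With each library left out, the uncalled changes with gallic acid ranged from -0.39 to 0.0087 for PGF, highest without GA+H/R library 3, and from -0.42 to 0.28 for FLT1, highest without GA+H/R library 2.

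Leaving out each library in turn gave 5 to 6, 3 to 4 and 4 to 6 growth factors called in the 3 comparisons, and 40 to 48, 18 to 35 and 47 to 51 pathway genes. The share of all loci called was not taken for these fits or for the replicate block below. Their counts therefore cannot be set against it. ANGPTL2 could not be tested without any one of the controls, nor with only H/R and GA+H/R fitted, because too few libraries then reach 1 FPKM. A pseudocount of 0.1 or no filter changed no call of a growth factor. Libraries of the same number did not deviate together (r from -0.02 to 0.03 over 9 pairs, with 3 of 9 libraries correlating best with their own number). With the replicate block 5, 4 and 6 growth factors and 43, 24 and 50 pathway genes were called, the added growth factor being PGF in GA+H/R against control (-0.62, limma adjusted p = 0.0439, against 0.0659 without it), and no other call of a growth factor changed.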
